A study of Mus musculus with 8 samples.

Results

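The genes of MHC antigen presentation followed here were the 10 genes H2-K1, H2-D1, B2m, Tap1, Tap2, Tapbp and Nlrc5, which serve MHC class I, and Cd74, H2-Ab1 and Ciita, which serve MHC class II. They were taken by gene name from a table of 55487 mouse genes, and all 10 were found. RNA had been sequenced from J774A.1 cells, a mouse macrophage line, in 4 libraries from cells given lipopolysaccharide (LPS, 1 μg/mL) and 4 from cells given LPS (1 μg/mL) together with ursodeoxycholic acid (UDCA, 1 mM), each for 24 h. UDCA is a bile acid that gut bacteria make, and LPS, from the outer membrane of bacteria, is a strong activator of macrophages. Both groups received LPS and no library without LPS was analysed here, so every difference below is that of adding UDCA to LPS. All libraries came from 1 cell line, and beyond their labels as separate samples nothing says that they came from separate cultures, so the p-values measure only the spread between these samples.

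MHC class I molecules show peptides from inside the cell to CD8+ T cells. Their heavy chains, here H2-K1 and H2-D1, pair with the light chain B2m, and their peptides are cut by proteasomes, carried into the endoplasmic reticulum by the transporter Tap1-Tap2 and loaded with the help of tapasin (Tapbp). MHC class II molecules show peptides taken up from outside to CD4+ T cells, with Cd74 (the invariant chain) guarding the groove until proteases of the endosome remove it. Nlrc5 and Ciita are the related master regulators of class I and class II transcription, and interferon-gamma is the classical inducer of the whole pathway in macrophages.

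Levels are given as TPM (transcripts per 1000000), in which reads are divided by transcript length and scaled to the library, so that levels may be compared between genes. TPM keeps no read number, so the depth of the libraries is not known, and errors describe the spread over libraries. The TPM sums of the libraries lay between 958918 and 977485, and 0 of 28 pairs of libraries held identical values. Changes are log2 fold changes of TPM + 1 (LPS + UDCA minus LPS), tested with limma on 11796 genes (mean TPM of 1 or more) and adjusted by the Benjamini-Hochberg method (FDR). The pseudocount of 1 makes the change of a gene with a low TPM look smaller than it is. UDCA moved a large part of the transcriptome. At an FDR under 0.05, 40.2% of the genes tested were higher and 32.3% lower with UDCA, and 8.71% were higher and 8.44% lower when a fold change of at least 2 was also asked for. The median log2 fold change of all genes tested was 0.08. In a bulk sample, fewer cells of a type and less RNA per cell cannot be told apart.

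Of the 10 genes, 9 passed the filter on low values. Of these, H2-D1 rose and 5 genes (B2m, Tap2, Tapbp, Cd74 and H2-Ab1) fell at an FDR under 0.05, while H2-K1, Tap1 and Nlrc5 did not pass the test and Ciita was listed at 0 TPM in every library. The share called, 66.7% of 9, stood beside 72.5% of all genes tested. Only H2-Ab1 also passed the fold change of 2, so that 1 of 9 was lower past both thresholds, beside 17.1% of all genes tested that passed both in either direction. For 1 gene every LPS + UDCA library was above and for 5 genes every one was below all LPS libraries. Of all genes tested, 37% were higher and 29.9% lower in this way, 66.8% together. The median log2 fold change of the 9 genes was -0.33.

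**Figure D1:**
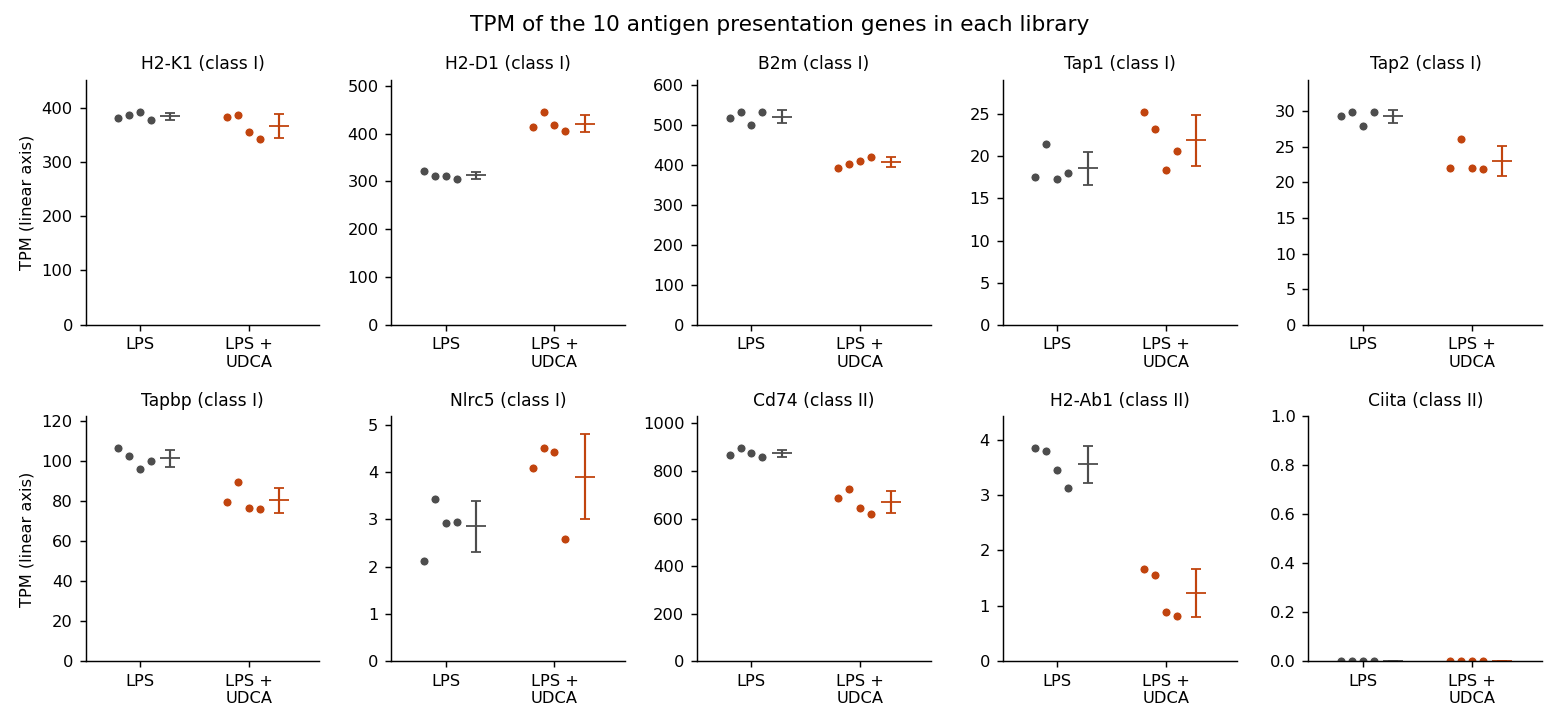
TPM of the 10 genes in each library on linear axes that start at 0, with 4 dots for LPS (grey) and 4 for LPS + UDCA (orange), and the mean and SD beside them. H2-D1 is higher and B2m, Tap2, Tapbp, Cd74 and H2-Ab1 are lower in every LPS + UDCA library, H2-K1, Tap1 and Nlrc5 overlap between the groups, and Ciita is at 0 in all 8 libraries.

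The heavy chains H2-K1 and H2-D1 are the classical class I molecules that carry peptides to the cell surface. H2-K1 (ENSMUSG00000061232) had 381, 386, 393 and 378 TPM in the LPS libraries and 383, 388, 355 and 342 TPM with UDCA. H2-D1 (ENSMUSG00000073411) had 322, 312, 311 and 305 TPM with LPS and 413, 446, 419 and 405 TPM with UDCA. The H2-K1 libraries overlapped between the groups, with LPS + UDCA replicates 3 and 4 the lowest of all 8, whereas every LPS + UDCA library was above every LPS library for H2-D1. The mean of H2-D1 was 1.35 times that of LPS (421 ± 17.7 against 313 ± 7.14 TPM, SD, n = 4 each), a log2 fold change of 0.43 ± 0.04 (SE; limma FDR = 5.63e-06). For H2-K1 the means were 367 ± 21.99 and 384 ± 6.76 TPM and the log2 fold change was -0.07, with a 95% interval from -0.17 to 0.03 (FDR = 0.181). The direction for H2-K1 depended on the scaling between libraries. It was lower at an FDR of 0.0123 with a median-of-ratios scaling (-0.18) and of 0.0116 with the median of all genes taken off (-0.15), and 0.01 with quantile normalization (FDR = 0.842).

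The order of the heavy chains therefore turned over. H2-D1 stood at 0.791 to 0.846 times H2-K1 in the 4 LPS libraries and at 1.08 to 1.19 times H2-K1 in the 4 LPS + UDCA libraries. Their summed level was 683 to 704 TPM with LPS and 747 to 834 TPM with UDCA. A comparison within a library does not depend on how the libraries are scaled. The level of either gene does depend on how reads were shared out between class I genes. Of the words of 31 bases in the H2-D1 transcripts, 26.9% also occur in other genes (13.8% in H2-K1), and 22.8% of those of H2-K1 do (11.1% in H2-D1). J774A.1 derives from BALB/c mice, which carry the H-2d haplotype, whereas the mouse reference genome carries H-2b, so the reads of these polymorphic genes came from other alleles than those of the reference. Its part in the levels was not tested.

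In the RefSeq sequence (GRCm38.p6), the promoters of both genes carry the same elements of class I control, and they are printed for comparison. This is the sequence of the reference, with the H-2b haplotype. The promoters of the cells themselves were not read and may differ from it. The part of the promoters in the response of these genes was not tested. Promoter windows of 250 bases before to 50 after the start were found for 5 of the 10 genes (H2-K1, H2-D1, B2m, Tap1 and Tapbp). The letters searched, on both strands, were the IRF core AANNGAAA (the core of sites for interferon regulatory factors), the NF-kB site, the X box core TGACG and the Y box core CCAAT, which in 32851 promoter windows of the same length occurred in 23.9%, 8.46%, 20.8% and 37.4%. Capitals mark the matches, and the NF-kB matches of H2-K1 and H2-D1 overlap each other on both strands. The H2-K1 stretch is chr17:34000348-34000473 (minus strand), that of H2-D1 is chr17:35262908-35263060 (plus strand) and that of B2m is chr2:122147535-122147653 (plus strand).
H2-K1: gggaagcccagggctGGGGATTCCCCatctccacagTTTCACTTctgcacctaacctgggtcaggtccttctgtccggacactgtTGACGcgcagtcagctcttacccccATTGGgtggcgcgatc
H2-D1: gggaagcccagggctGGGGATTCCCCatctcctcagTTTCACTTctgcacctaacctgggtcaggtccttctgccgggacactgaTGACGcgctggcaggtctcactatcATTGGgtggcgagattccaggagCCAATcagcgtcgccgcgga
B2m: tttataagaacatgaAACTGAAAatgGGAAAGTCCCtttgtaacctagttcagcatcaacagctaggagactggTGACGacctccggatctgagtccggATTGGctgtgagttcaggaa
The H2-K1 and H2-D1 stretches share a run of 40 bases without a difference, and NF-kB, IRF, X box and Y box matches stand in the same order in both. The H2-K1 stretch ends at the start of the gene. Its window holds a second CCAAT at base 9 after that start, which is not printed, so the second CCAAT is not particular to H2-D1. B2m holds the same 4 kinds of match, with the IRF core before the NF-kB match. A match of letters is a description of the window and not a measured binding site.

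B2m, the light chain that every class I molecule needs to fold and reach the surface, moved the other way. B2m (ENSMUSG00000060802, chr2:122147686-122153083) had 517, 532, 499 and 533 TPM with LPS and 391, 402, 410 and 421 TPM with UDCA. Every LPS + UDCA library was below every LPS library, and the mean was 0.780 times that of LPS (406 ± 12.5 against 520 ± 16.0 TPM, SD, n = 4 each; log2 fold change -0.36 ± 0.03, SE; limma FDR = 1.26e-05). None of the 31-base words of B2m is shared with another gene. The ratio of H2-D1 to B2m rose from 0.572 to 0.623 in the LPS libraries to 0.964 to 1.11 with UDCA, and that of H2-K1 to B2m from 0.709 to 0.788 to 0.813 to 0.978. Neither ratio overlapped between the groups. In each, the difference of the log2 ratios (0.79 and 0.29) gave p = 0.029 in the exact two-sided permutation test, the smallest p that 4 against 4 libraries allow (0.033 after adjustment over the 8 ratios compared).

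The transporter associated with antigen processing is made of 1 Tap1 and 1 Tap2 chain, which carry peptides from the cytosol into the endoplasmic reticulum. Tap2 (ENSMUSG00000024339) had 29.3, 29.9, 28.0 and 29.9 TPM with LPS and 22.1, 26.1, 21.95 and 21.9 TPM with UDCA. Tap1 (ENSMUSG00000037321) had 17.6, 21.4, 17.3 and 18.0 TPM with LPS and 25.3, 23.3, 18.4 and 20.7 TPM with UDCA. Tap2 was lower in every LPS + UDCA library, of which replicate 2 was well above the other three, whereas the Tap1 libraries overlapped between the groups. The log2 fold change of Tap2 was -0.34 ± 0.06 (SE; limma FDR = 0.00115) and that of Tap1 was 0.22 ± 0.10 (FDR = 0.0814). Tap1 passed the test without LPS replicate 2 (0.29, FDR = 0.0344) and without LPS + UDCA replicate 3 (0.30, FDR = 0.0234). Tap2 stood at 1.40 to 1.67 times Tap1 in the LPS libraries and at 0.872 to 1.19 times with UDCA, a log2 difference of -0.58 (exact permutation test, p = 0.029, 0.033 adjusted). Tap2 overlaps the antisense genes Gm20496 and Gm15821, and the sources used here do not say that the counting used strand. Both stood at a mean of at most 0.0875 TPM in either group.

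Tapasin and Nlrc5 complete the class I genes. Tapbp (ENSMUSG00000024308), which bridges empty class I molecules to the transporter, had 106, 103, 96.2 and 99.9 TPM with LPS and 79.8, 89.5, 76.6 and 76.1 TPM with UDCA. Nlrc5 (ENSMUSG00000074151), the transactivator of class I promoters, had 2.12, 3.43, 2.92 and 2.95 TPM with LPS and 4.09, 4.50, 4.42 and 2.58 TPM with UDCA. Tapbp fell in all LPS + UDCA libraries without overlap (log2 fold change -0.33 ± 0.06, SE; limma FDR = 0.000674). LPS + UDCA replicates 1, 2 and 3 of Nlrc5 were above every LPS library and replicate 4 was within their range, and the change of 0.34 ± 0.17 did not pass the test (FDR = 0.0939). Without LPS + UDCA replicate 4 it was 0.48 (FDR = 0.0111). Of the Tapbp words, 22.1% are shared with its antisense gene Gm19412, which stood at 1.65 and 1.48 TPM in the groups, and which cannot be told apart from Tapbp if strand was not used.

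Among the class II genes, Cd74 was the most abundant of all 10 genes in both groups. Cd74 (ENSMUSG00000024610), the invariant chain, had 869, 895, 877 and 858 TPM with LPS and 686, 723, 645 and 621 TPM with UDCA. H2-Ab1 (ENSMUSG00000073421), the beta chain of the class II molecule H2-A, had 3.84, 3.79, 3.45 and 3.12 TPM with LPS and 1.67, 1.55, 0.89 and 0.82 TPM with UDCA. Both genes were lower in every LPS + UDCA library, and replicates 3 and 4 were the lowest for both. Cd74 had a mean 0.765 times that of LPS (669 ± 45.1 against 874 ± 15.3 TPM, SD, n = 4 each; log2 fold change -0.39 ± 0.05, SE; limma FDR = 5.25e-05). H2-Ab1 had a mean 0.347 times that of LPS (1.23 ± 0.440 against 3.55 ± 0.335 TPM; log2 fold change -1.05 ± 0.15; FDR = 0.000198). Its change stood just past the fold change of 2, and without LPS + UDCA replicate 3 or 4 it was -0.97 and -0.95, so that 0 of the 9 genes then passed both thresholds, while it was -1.51 with a pseudocount of 0.1. Ciita (ENSMUSG00000022504), the transactivator of class II promoters, was listed at 0 TPM in all 8 libraries. The ratio of Cd74 to H2-Ab1 went from 226 to 275 in the LPS libraries to 411 to 757 with UDCA (log2 difference 1.21, exact permutation test, p = 0.029, 0.033 adjusted). H2-Aa, the alpha chain that pairs with H2-Ab1, stood at 0.395 ± 0.222 and 0.248 ± 0.145 TPM and was too low to test, and its ratio to H2-Ab1 overlapped between the groups (exact permutation test, p = 0.31).

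Set side by side, the 7 class I genes held 1 that rose, 3 that fell and 3 that did not pass. Their median log2 fold change was -0.07. Both class II genes tested fell, with a median of -0.72. The share called was 57.1% of the class I genes, beside 72.5% of all genes tested, of which 40.2% were higher and 32.3% lower. Taken library by library against the mean of the LPS libraries, the class II median was -0.08 to 0.06 in the LPS libraries and -0.91 to -0.55 with UDCA. The class I median was -0.06 to 0.03 and -0.17 to 0.01, so the class I libraries overlapped and the class II libraries did not. Taken singly, 66.8% of all genes tested did not overlap between the groups either. No test was made of this contrast, because genes are not replicates and the class II median rests on Cd74 and H2-Ab1. The log2 fold change of Cd74 was close to those of B2m, Tap2 and Tapbp, and their 95% intervals overlapped (-0.49 to -0.28 for Cd74 and -0.43 to -0.28 for B2m). With genes under a mean of 5 TPM left out, Nlrc5 and H2-Ab1 were dropped, and the medians were -0.20 for class I and -0.39 for class II, which was then Cd74 alone.

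In order of level, the LPS libraries held Cd74 (874 TPM), B2m (520), H2-K1 (384), H2-D1 (313), Tapbp (101), Tap2 (29.3), Tap1 (18.6), H2-Ab1 (3.55) and Nlrc5 (2.86 TPM). The ranges of H2-Ab1 and Nlrc5 overlapped, and those of all other neighbours were apart. With UDCA the order was Cd74 (669 TPM), H2-D1 (421), B2m (406), H2-K1 (367), Tapbp (80.5), Tap2 (23.002), Tap1 (21.9), Nlrc5 (3.90) and H2-Ab1 (1.23 TPM). Here H2-D1 and B2m overlapped, as did Tap2 and Tap1. Cd74, B2m and the heavy chains stayed far above the loading genes, and H2-Ab1 and the regulators lay at the bottom in both groups.

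The cells expressed the macrophage markers Cd68, Lyz2, Csf1r, Itgam, Cd14, Adgre1, Fcgr1 and Ptprc. With UDCA 5 of them were lower and 3 higher at an FDR under 0.05, beside 32.3% and 40.2% of all genes tested. The summed level of these markers was 3939 to 4191 TPM in the LPS libraries and 1776 to 1994 TPM with UDCA. Its largest term with LPS was Lyz2, at means of 1988 TPM with LPS and 436 TPM with UDCA. The 3 that were higher were Adgre1, Fcgr1 and Ptprc, so the sum does not stand for each marker. The part of these markers in the changes of the antigen presentation genes was not tested. Markers of other cells that carry class II molecules were low, and most were at or near 0. The B cell markers, 4 of 5 of them under 1 TPM in every library, had a sum that was 3.10 to 4.50 TPM with LPS and 0.350 to 1.60 TPM with UDCA, nearly all of it Cd79b. Cd79b stood at 2.95 to 4.00 TPM with LPS, about the level of H2-Ab1, and fell with UDCA (log2 fold change -1.29, limma FDR = 0.000165), and its part in the change of H2-Ab1 was not tested. The 6 dendritic cell markers summed to 0.680 to 1.68 and 0.660 to 1.24 TPM, with Clec9a and Cd209a at 0. T cell, epithelial and fibroblast markers summed to at most 0.12 TPM.

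A wider list of 72 gene symbols around the pathway was read beside the 10. The 3 not found (H2-Ea-ps, March1 and March8) are other names of H2-Ea, Marchf1 and Marchf8, which were. So 69 genes were found, of which 56 were tested. At an FDR under 0.05, 18 rose, 28 fell and 10 did not pass, and past both thresholds 3 rose and 10 fell. Of all genes tested, 8.71% were higher and 8.44% lower past both thresholds. With a median-of-ratios scaling, 1 gene of the wider list rose and 12 fell past both thresholds. The share called at an FDR under 0.05 was 82.1%, beside 72.5% of all genes tested. The plot of log2 fold changes shows these genes one by one.

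Of the 16 other class I and class I-like molecules, 13 were tested, 8 fell, 0 rose and 5 did not pass, with a median log2 fold change of -0.50. The share called was 61.5%, beside 72.5% of all genes tested, of which 32.3% were lower. At an unadjusted p under 0.05, limma also called 0 of them higher. H2-T23 (Qa-1, which presents to the inhibitory receptor of natural killer cells) was the most abundant of them, with 105, 109, 106 and 108 TPM in the LPS libraries and 54.2, 52.5, 49.0 and 51.1 TPM with UDCA. H2-T24 had the lowest log2 fold change of TPM + 1, from 25.7, 25.4, 23.04 and 25.3 TPM to 8.67, 11.4, 8.75 and 9.54 TPM. The log2 fold changes were -1.03 ± 0.04 for H2-T23 (SE; limma FDR = 4.90e-08) and -1.29 ± 0.09 for H2-T24 (FDR = 1.19e-06). For both genes every LPS + UDCA library was below every LPS library. Both overlap the antisense gene A930015D03Rik, which had means of 6.07 and 3.11 TPM and which cannot be told apart from them if strand was not used. Named after their values were seen, H2-T22, H2-T10, H2-M3 and Mr1, the presenter of vitamin B metabolites, fell as well (-1.27, -0.98, -0.64 and -0.99). By the means themselves Mr1, at 0.302 times LPS, was lower than H2-T24, at 0.386 times, and 67.4% of the words of H2-T22 and 64.2% of those of H2-T10 are shared with other genes. Genes of the neighbouring Q region, also named after their values were seen, varied. H2-Q2 and H2-Q6 fell (-0.50, FDR = 0.0115 and -0.21, FDR = 0.0161, limma), whereas H2-Q1, H2-Q4, H2-Q7 and H2-Q10 did not pass. H2-Q4 stood at 38.6 and 39.2 TPM and H2-Q7 at 20.1 and 20.3 TPM, and the 95% intervals of their log2 fold changes were -0.13 to 0.17 and -0.16 to 0.19. Of the words of H2-Q2, H2-Q4, H2-Q6 and H2-Q7, 32.8%, 53.0%, 51.8% and 39.2% are shared with other genes.

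The promoter of H2-T23, the most abundant of these molecules, is shown beside those of the heavy chains (chr17:36032734-36032840, minus strand, GRCm38.p6). It too is the sequence of the reference and not of the cells.
H2-T23: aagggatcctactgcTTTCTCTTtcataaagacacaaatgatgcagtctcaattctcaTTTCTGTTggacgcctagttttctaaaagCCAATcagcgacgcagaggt
It holds IRF core and Y box letters and no match for NF-kB or the X box core in this window. The windows of B2m, H2-T22 and H2-M3, which also fell, hold all 4 kinds of match. So do those of H2-K1, H2-Q4 and H2-Q7, which did not pass, and of H2-D1, which rose. The part of these matches in the changes was not tested. All 11 of the other class I molecules with a RefSeq promoter window held the IRF core, 6 held an NF-kB match and 8 a CCAAT, against 3, 3 and 5 of the 5 class I genes of the main list that had a window.

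Of the 11 genes that supply and load class I peptides, all were tested, 6 rose and 5 fell, with 1 past both thresholds upward and 3 downward. Of all genes tested, 40.2% were higher and 32.3% lower, and 8.71% and 8.44% were so past both thresholds. Those that fell were the interferon-inducible proteasome subunits Psmb8, Psmb9 and Psmb10, which replace the constitutive Psmb5, Psmb6 and Psmb7 in the immunoproteasome, and its activator subunits Psme1 and Psme2. Those that rose were the chaperones Calr, Canx and Pdia3, the peptide editor Tapbpl and the trimming peptidases Erap1 and Lnpep. Calr, the most abundant, had 661, 630, 625 and 624 TPM with LPS and 1197, 1240, 1137 and 1179 TPM with UDCA (log2 fold change 0.90 ± 0.03, SE; limma FDR = 4.00e-08). Tapbpl had 3.40, 3.42, 3.53 and 3.04 TPM with LPS and 11.2, 13.8, 12.4 and 10.8 TPM with UDCA (1.58 ± 0.09; FDR = 4.14e-07). For both, all LPS + UDCA libraries lay above all LPS libraries. Tapbpl overlaps Vamp1 on the other strand, which had means of 2.81 and 7.70 TPM. Lnpep passed in 3 of the 8 fits that left out 1 library, and Psme2 shares 33.5% of its words, all with Psme2b. Calr, Canx and Pdia3 also fold other glycoproteins of the endoplasmic reticulum, so they are not specific to class I.

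By log2 fold change, the immunoproteasome subunits were the lowest of the 11 supply and loading genes. Psmb8 had 86.9, 85.1, 84.2 and 83.2 TPM with LPS and 28.3, 29.9, 27.1 and 27.7 TPM with UDCA (log2 fold change -1.55 ± 0.04, SE; limma FDR = 5.63e-09). Psmb9 had 7.45, 8.64, 10.01 and 7.61 TPM with LPS and 3.18, 2.54, 2.62 and 2.80 TPM with UDCA (-1.31 ± 0.11; FDR = 3.99e-06). Psmb10 had 34.9, 37.0, 39.7 and 37.8 TPM with LPS and 15.3, 19.1, 17.5 and 18.9 TPM with UDCA (-1.04 ± 0.08; FDR = 2.03e-06). None of the 3 overlapped between the groups. Their constitutive counterparts were far more abundant. Psmb6 and Psmb7 rose (0.28 ± 0.03, FDR = 1.36e-05 and 0.35 ± 0.04, FDR = 8.08e-05), and Psmb5 had means of 399 and 402 TPM with an FDR of 0.755, although it passed upward with quantile normalization (0.12, FDR = 0.0246). The activator subunit Psme3, which builds the nuclear activator, fell by 0.14 (FDR = 0.00968), but did not pass with quantile normalization (-0.06, FDR = 0.129).

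Each immunoproteasome subunit therefore lost ground to its counterpart. Psmb8 stood at 0.206 to 0.232 times Psmb5 in the LPS libraries and at 0.0678 to 0.0732 times with UDCA, a 3.03-fold lower ratio. Psmb9 stood at 0.0156 to 0.0216 times Psmb6 and then at 0.00438 to 0.00551 times, which is 3.67-fold lower. Psmb10 stood at 0.119 to 0.125 times Psmb7 and then at 0.0382 to 0.0510 times, which is 2.70-fold lower. None of these ratios overlapped between the groups, and each gave p = 0.029 in the exact permutation test (0.033 adjusted over the 8 ratios). Because 71.7% of the words of Psmb5 are shared, mostly with the gene Gm3375, its level is uncertain. Psmb7 shares 10.3% of its words with Nek6 on the other strand (28.7 and 7.54 TPM).

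**Figure D2:**
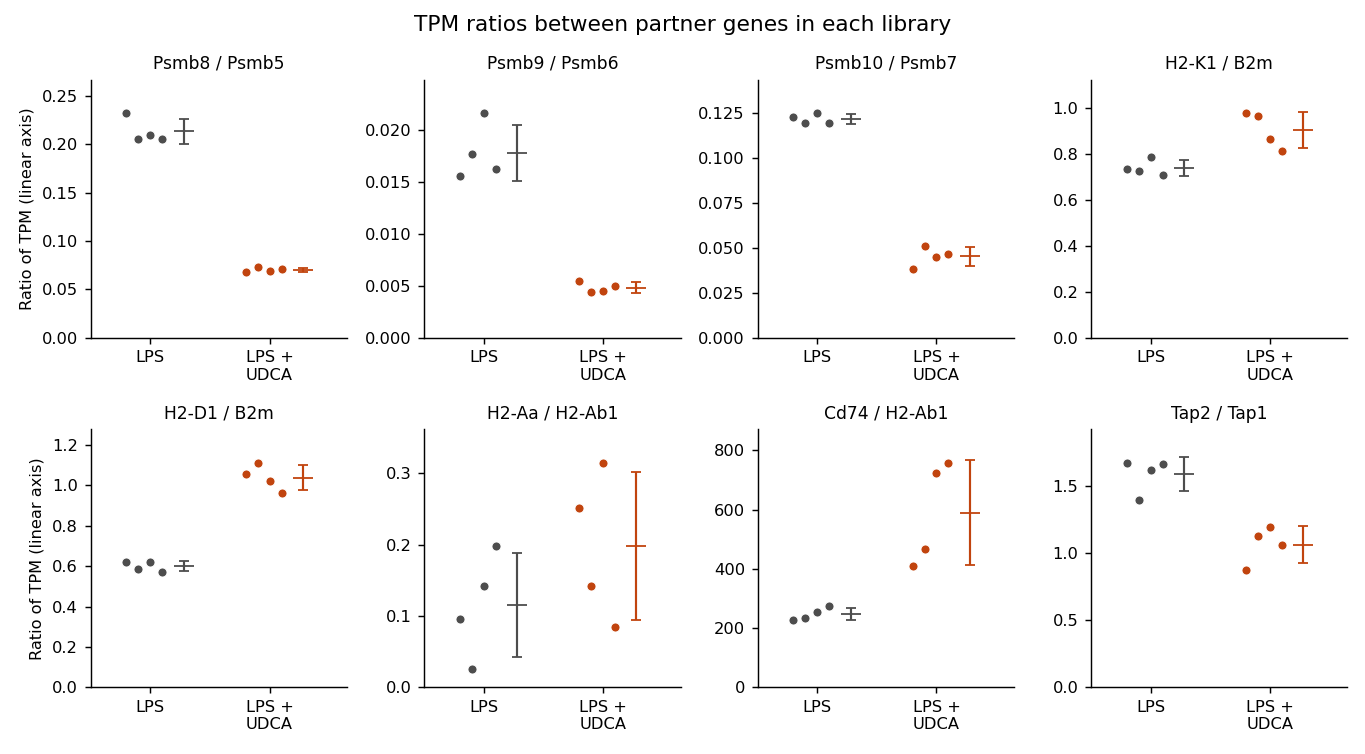
Ratio of TPM between partner genes in each library on linear axes that start at 0, with 4 dots for LPS (grey) and 4 for LPS + UDCA (orange), and the mean and SD beside them. The ratios of immunoproteasome to constitutive subunits and of Tap2 to Tap1 are lower and those of H2-K1 and H2-D1 to B2m and of Cd74 to H2-Ab1 are higher in every LPS + UDCA library, and H2-Aa to H2-Ab1 overlaps.

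Tap1 and Psmb9 offer a close contrast, since they are neighbours that are known to be read in opposite directions from a shared promoter. Their RefSeq starts leave 225 bases between them (chr17:34187331-34187555, GRCm38.p6). These bases lie before the RefSeq start of both genes and are printed in the direction of Tap1. They are those of the reference, and the sequence of the cells was not read.
Tap1 and Psmb9: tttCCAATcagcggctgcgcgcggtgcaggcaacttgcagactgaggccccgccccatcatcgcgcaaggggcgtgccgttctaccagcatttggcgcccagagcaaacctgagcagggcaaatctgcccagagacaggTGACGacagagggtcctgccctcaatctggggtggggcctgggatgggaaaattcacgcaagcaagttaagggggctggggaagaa
Capitals mark the Y box and X box letters, and no match for the IRF core or NF-kB as searched was found in the windows of either gene. Psmb9 fell by 1.31 on the log2 scale while Tap1 changed by 0.22 without passing the test. In the GENCODE annotation Psmb9 reaches to base 34187764, past the printed bases, and Tap1 begins at 34187553. Exons of the 2 genes therefore overlap there on opposite strands, unlike in RefSeq, and 4.79% of the words of Psmb9 are shared with Tap1. The difference between the 2 genes was not itself tested.

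Other class II genes were scarce. Of 9 found, 3 were tested, and H2-Ea and H2-Eb2 were listed at 0 TPM in every library. H2-Ea is annotated as a polymorphic pseudogene in the reference. The difference in haplotype between the cells and the reference holds for class II genes too, H2-Ab1 and H2-Aa among them. Its part in their levels was not tested. H2-Oa, part of the inhibitor H2-O of peptide exchange, had 2.84, 2.29, 2.96 and 2.83 TPM with LPS and 0.320, 0.700, 0.660 and 0.0800 TPM with UDCA (log2 fold change -1.39 ± 0.17, SE; limma FDR = 6.10e-05). H2-DMa, a chain of the peptide exchanger H2-DM, went the other way, from 9.04, 7.23, 6.61 and 7.77 TPM to 16.6, 19.1, 13.7 and 9.23 TPM (0.82 ± 0.19; FDR = 0.00386). For H2-DMa the lowest LPS + UDCA library lay just above the highest LPS library, and the partner chains H2-DMb1 and H2-DMb2 stayed under 1 TPM. H2-DMa overlaps Brd2 on the other strand (143 and 120 TPM), with which it shares 9.23% of its words. H2-Eb1, named after its values were seen, fell by 0.45 (FDR = 0.0461) and passed in 2 of the 8 fits that left out 1 library.

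The list of class II processing and turnover held proteases that cut the invariant chain and prepare peptides, a thiol reductase and ubiquitin ligases. Of 8 genes found, 7 were tested, 6 fell and 1, the ligase Marchf8 (FDR = 0.37), did not pass, with a median log2 fold change of -0.71 and 2 past both thresholds. Of all genes tested, 32.3% were lower, and 8.44% were lower past both thresholds. The 5 proteases Ctss, Ctsl, Ctsb, Ctsd and Lgmn all fell. Lgmn, the asparaginyl endopeptidase, had 231, 235, 231 and 231 TPM with LPS and 80.2, 83.6, 81.5 and 77.6 TPM with UDCA (log2 fold change -1.51 ± 0.03, SE; limma FDR = 1.72e-09). Ctsd, a cathepsin of the lysosome, was the most abundant, with 1050, 1034, 1024 and 1003 TPM and then 829, 858, 806 and 786 TPM (-0.33 ± 0.03; FDR = 1.70e-05). Neither gene overlapped between the groups. Ctsd lies over Gm49369 on the same strand (30.7 and 9.95 TPM), and 33.2% of its words are shared. Named after their values were seen, Ifi30, a thiol reductase that interferon-gamma induces, fell by 1.12 and Ctss, the cathepsin that completes the cutting of Cd74, fell by 0.82. These enzymes also serve general lysosomal breakdown.

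The factors that bind X and Y boxes were called about as often as all genes. Of 7 tested, 4 rose (Nfya, Creb1, Nfyb and Rfxank), Nfyc fell and Rfx5 and Rfxap did not pass, with a median log2 fold change of 0.40, so that 71.4% were called beside 72.5% of all genes tested. Nfya, the highest by level and by change, had 41.1, 29.8, 34.2 and 35.5 TPM with LPS and 56.5, 56.3, 55.6 and 51.2 TPM with UDCA (0.64 ± 0.09, SE; limma FDR = 0.000132). Nfyc had 34.0, 25.5, 29.2 and 29.5 TPM with LPS and 20.7, 20.7, 17.0 and 21.8 TPM with UDCA (-0.54 ± 0.10; FDR = 0.000878). Neither overlapped between the groups. These are subunits of the trimer NF-Y, and 27.1% of the words of Nfyc are shared, mostly with Gm9144.

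Among 14 genes of the interferon-gamma pathway and other regulators, 11 were tested, 5 rose, 5 fell and 1 did not pass, with a median log2 fold change of 0.13. Of those tested 90.9% were called, beside 72.5% of all genes tested (40.2% higher and 32.3% lower). Ifng was listed at 0 TPM in all libraries. Jak2, the kinase at the interferon-gamma receptor, had 5.18, 4.34, 3.59 and 4.24 TPM with LPS and 9.25, 10.3, 10.9 and 10.95 TPM with UDCA (1.09 ± 0.10, SE; limma FDR = 9.73e-06). Irf4, a factor of the macrophage and lymphoid lineages, had 3.14, 2.55, 2.76 and 3.15 TPM and then 0.510, 0.570, 0.480 and 0.580 TPM (-1.34 ± 0.11; FDR = 4.51e-06). In both genes the libraries were apart. Spi1 (PU.1), the most abundant of the list at 285 and 326 TPM, was higher by 0.19 (FDR = 0.00627), but did not pass with a median-of-ratios scaling (0.08, FDR = 0.131) or with the median of all genes taken off (0.11, FDR = 0.0709). Named after their values were seen, Irf1, the activator of Psmb9, Tap1 and other class I genes, rose from a mean of 5.81 to 13.1 TPM (1.05 ± 0.06; FDR = 6.66e-07). Irf8, a factor of the myeloid lineage, fell by 0.73 (FDR = 1.22e-05) and the inhibitor Socs1 by 0.59 (FDR = 0.00147).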

How the data were processed

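RNA-seq libraries of J774A.1 cells, 4 with LPS and 4 with LPS + UDCA, were grouped by their titles in the labels. The authors deposited TPM per gene, 1 column per library with 2 decimals. The unit was inferred from the column sums. Submitters' notes name Bowtie 0.12.2 and GRCm38, and the counting program is not given in the sources used here. The labels name an Illumina TruSeq kit. Since TPM holds no read numbers, counting error is not given. The 10 genes and all lists were chosen with earlier results of these data known. The genes whose mean reached 1 TPM were fitted as log2(TPM + 1) with limma 3.58.1 (lmFit, eBayes with trend, R 4.3.3), without a replicate block, and adjusted by Benjamini-Hochberg over 11796 genes. Calls were made at an FDR under 0.05, with or without a fold change of at least 2. Ratios were compared by exact permutation over 70 arrangements (Python 3.11.15, scipy 1.17.1). The procedure was tested on simulated data. Besides the 10 genes, those named were, per list, the highest and lowest change among genes with an FDR under 0.05, the highest mean, genes in a ratio, and any listed at 0 somewhere and at 10 TPM or above elsewhere, and others are said to be named after their values were seen. Positions and shared words of 31 bases are from GENCODE M21 on GRCm38, promoter sequences from RefSeq (GRCm38.p6). Values of some listed genes are not reported here.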

Additional observations from a re-analysis of the deposited data

Results flagged for a closer look

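In groups of 4 libraries, a value was singled out where its gap to the nearest other library was a larger share of the whole range than the 95% critical value of Dixon's test allows. Of the 76 sets of 4 values examined, 6 were singled out, where chance gives about 3.8. Among the 10 genes this was the 26.13 TPM of Tap2 in LPS + UDCA replicate 2, the highest of its group at a gap of 0.96 of the range, which still lay below every LPS library. Among the other genes, Calr was highest in LPS replicate 1 (660.54 TPM), H2-T24 lowest in LPS replicate 3 (23.04 TPM), Lgmn highest in LPS replicate 2 (235.05 TPM) and Nfya lowest in LPS + UDCA replicate 4 (51.21 TPM). The ratio of Psmb8 to Psmb5 was highest in LPS replicate 1 (0.2319). None of these values reached the range of the other group.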

How the results depend on the processing

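Of the 9 genes tested among the 10, 6 kept their direction and their side of the FDR threshold under all alternatives that could be fitted, the exceptions being H2-K1, Tap1 and Nlrc5. Genes under a mean of 5 TPM, among them H2-Ab1 and Nlrc5, were absent from the fit that asked for that mean, where 0 genes were lower past both thresholds. The median log2 fold change of class I was -0.20 in that fit, -0.18 with median-of-ratios scaling, -0.15 with the median of all genes taken off and 0.00921 with quantile normalization, and in the last 3 the values are those of H2-K1. The class II median was -0.39 with the mean of 5 TPM and -0.95 with a pseudocount of 0.1. For the wider list, 1 gene was higher past both thresholds with median-of-ratios scaling, and 8 were higher and 19 lower with a fold change of 1.5. Psmb5 changed sign under the median-of-ratios scaling (-0.0943) and once the all-gene median was taken off (-0.0674). The causes were not tested, apart from the genes that a filter or fold threshold itself admits. With 1 library left out, 1 to 2 of the 9 genes were higher, 0 to 1 lower past both thresholds, and Psmb5 lay between -0.0151 and 0.0326. Neighbours whose ranges overlap in the order of levels numbered 0 to 1 with LPS and 1 to 2 with UDCA. With a replicate block in the model, limma called 1 gene higher and 5 lower of the 10, and 18 and 26 of the wider list. Deviations of same-numbered libraries correlated at -0.0354 to 0.146, and those of libraries with other numbers at -0.145 to 0.162. Of the libraries, 2 of 4 LPS and 3 of 4 LPS + UDCA correlated best with their own number. The 2 ranges overlap, so these values do not settle whether the numbers pair the samples. The unknown depth limits genes of low TPM, H2-Ab1 and Nlrc5 among them.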

Other observations

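In 6 of the 9 genes tested (H2-K1, Tap1, Tap2, Tapbp, Cd74 and H2-Ab1), replicates 3 and 4 were the lowest of the LPS + UDCA libraries, a pattern noticed after the values were seen. The same held for 21.1% of all 11796 genes tested. B2m had the reverse order, with 410 and 421 TPM in replicates 3 and 4 against 391 and 402 TPM in replicates 1 and 2. The cause was not tested, and the numbers of replicates carry no order.

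Interferon beta was the interferon with any level in the list. Ifnb1 had 0.440, 0.12, 0.320 and 0.360 TPM in the LPS libraries and 0.210, 0.400, 0.750 and 1.02 TPM with UDCA, so the groups overlapped, and it was too low to enter the test. H2-Ob, the partner of H2-Oa in H2-O, was also under the filter, with 0.200, 0.210, 0.360 and 0.0800 TPM with LPS and 0.0300, 0, 0.0700 and 0 TPM with UDCA. Both genes were named after their values were seen.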
